A study of Mus musculus with 9 samples.

Results

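Elavl1, Elavl2, Elavl3, Elavl4, Msi1, Msi2, Cpeb1, Cpeb2, Cpeb3 and Cpeb4 encode the Elavl (Hu), Musashi and Cpeb families of RNA-binding proteins, which were followed across mouse neurons, native neural stem cells (NSCs) and the NSC-like cells induced from neurons by YAP (yNSCs). The 10 genes were taken by name, whatever their levels, out of 18193 genes measured on the arrays, and all 10 were present. They were covered by 39 probe sets, of which the one with the greatest average over the 9 arrays represents its gene here, with the others examined as well.

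All of these proteins act on mRNA after it has been transcribed. Elavl proteins bind AU-rich and U-rich stretches, largely in the untranslated tail of the mRNA, where they protect the message from decay and promote its translation. Elavl1 (HuR) is made in nearly every cell and is common in dividing ones, whereas Elavl2 (HuB), Elavl3 (HuC) and Elavl4 (HuD) are typical of neurons and are routinely used to mark them. Musashi proteins are translational regulators that include Msi1, a classical marker of neural stem and progenitor cells that is known to repress Numb, an inhibitor of Notch. Cpeb proteins bind the cytoplasmic polyadenylation element and switch translation through the length of the poly(A) tail, first in oocytes and later at synapses, where they serve lasting synaptic plasticity.

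Gene expression was measured on Affymetrix arrays in 3 groups of 3 arrays, described as separate biological samples and labelled as replicas A, B and C, without saying which cultures or animals they came from. yNSCs had been obtained from cortical neurons carrying doxycycline-inducible wild-type YAP and rtTA delivered by lentivirus, and had then been passaged as neurospheres without doxycycline. yNSCs and native NSCs were both grown in a DMEM/F12 medium containing EGF, bFGF and the N2 supplement. Cortical neurons were kept in Neurobasal and B27 with AraC, which kills dividing cells, so cell type and medium cannot be told apart in either comparison with neurons. The labels give neither strain nor age, and these were neuron-enriched cultures, not sorted cells. As these are bulk samples, fewer cells of a type and less RNA per cell cannot be told apart.

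Values are log2 units after robust multi-array averaging (RMA), so that a difference of 1 is a 2-fold change. They ran from 1.73 to 14.46, with array medians of 4.90 to 5.02 and lower quartiles of 3.42 to 3.73, and a gene was called near background where its group mean lay under the mean lower quartile of that group. A fold against a group near background is to be read as a lower bound. Arrays of a group correlated at 0.992 to 0.998, and only 3 arrays per group limit the precision. The mean level of 6 neuronal markers was 6.24 to 6.25 in yNSCs, 5.93 to 6.07 in NSCs and 11.52 to 11.60 in neurons, and that of 3 dividing-cell markers was 9.88 to 10.05, 10.40 to 10.97 and 5.92 to 6.31 in the same order. For 7 neural stem cell markers the mean was 9.75 to 9.80 in yNSCs, 10.02 to 10.29 in NSCs and 8.64 to 8.75 in neurons. These markers went both ways between yNSCs and NSCs, as in Hes5 (4.22 and 8.09) and Prom1 (8.55 and 6.85). The mean of 7 microglia and macrophage markers was 4.35 to 4.39 in yNSCs, 3.50 to 3.51 in NSCs and 7.60 to 8.26 in neurons. The 3′ minus 5′ signal of the Gapdh control, a sign of RNA integrity, was -0.09 to -0.04 in yNSCs, 0.11 to 0.28 in NSCs and -0.19 to -0.17 in neurons. That of the beta-actin control was 0.19 to 0.31 in yNSCs, 0.56 to 0.70 in NSCs and 0.03 to 0.21 in neurons. The part of these differences in the values below was not tested.

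yNSCs and neurons differed at every one of the 10 genes. Elavl1, both Musashi genes and Cpeb1 were higher in yNSCs, and the 3 neuronal Elavl genes, Cpeb2, Cpeb3 and Cpeb4 were lower. These 4 higher and 6 lower calls were made with limma at a Benjamini-Hochberg adjusted p under 0.05, and stand beside 34.6% of all genes higher and 27.9% lower in the same comparison. The arrays of yNSCs and neurons did not overlap for 10 of 10 genes, against 67.0% of all genes. The median absolute difference was 2.10 over the members and 0.51 over all genes.

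NSCs and neurons differed at 9 of the 10 genes. Elavl1 and Msi1 were higher in NSCs, 7 genes were lower and Msi2 did not pass the test, beside 33.3% of all genes higher and 34.1% lower. Arrays did not overlap for 9 members, against 69.1% of all genes, and the median absolute difference was 1.43 over the members and 0.56 over all genes. Between yNSCs and NSCs, Msi1, Msi2 and Cpeb1 were higher, Elavl2, Elavl4 and Cpeb2 were lower, and 4 genes did not pass the test, beside 21.3% of all genes higher and 18.0% lower. Here the arrays of 7 members did not overlap, against 51.6% of all genes, and the median absolute difference was 0.53 over the members and 0.26 over all genes. The 2 comparisons with neurons share the neuron arrays and are therefore given side by side.

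**Figure D1:**
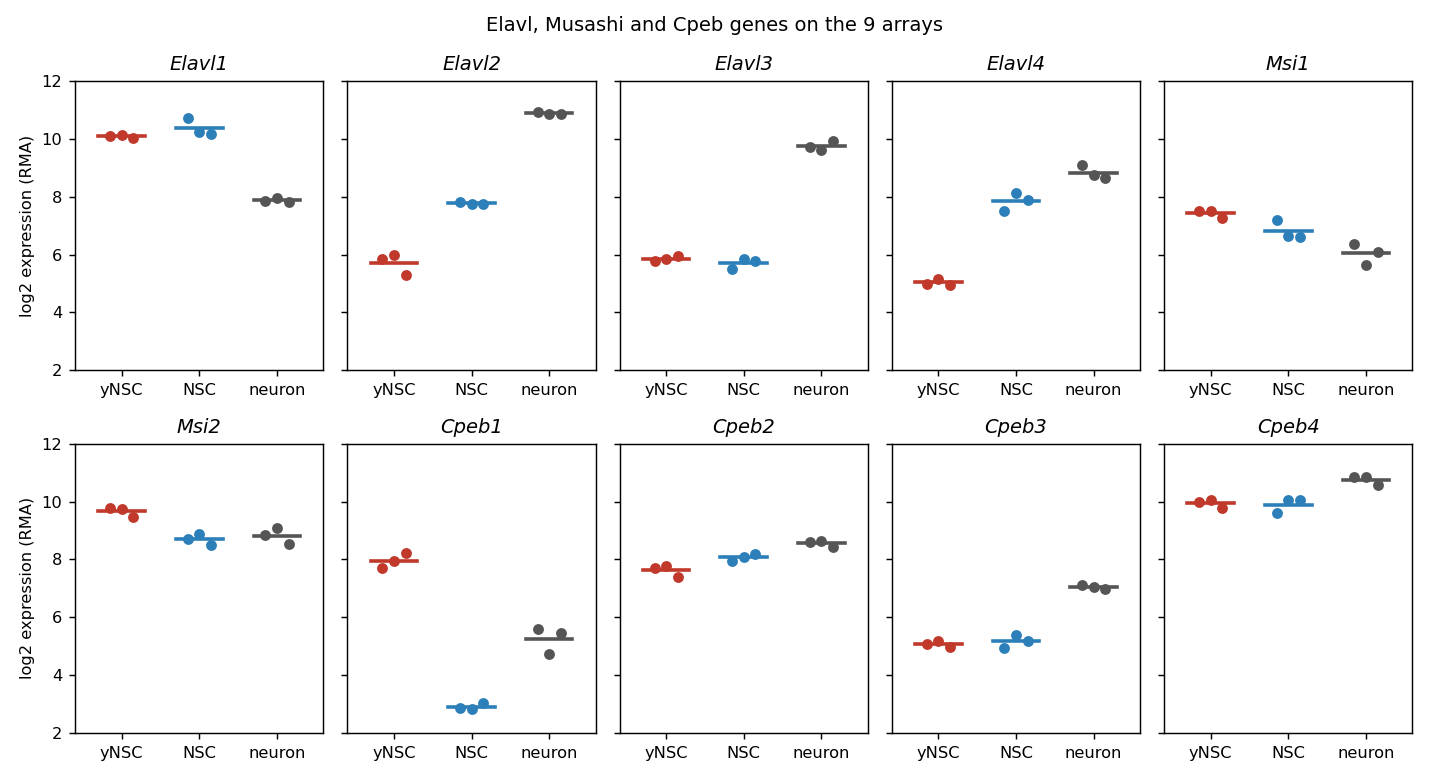
log2 expression (y axis) of each gene on the 3 yNSC, 3 NSC and 3 neuron arrays (x axis), with points for arrays A, B and C from left to right and bars for group means. Elavl1 is high in both stem cell groups, Elavl3 is high in neurons alone, and Cpeb1 lies at 7.72 to 8.23 in yNSCs, 2.82 to 3.02 in NSCs and 4.74 to 5.59 in neurons; levels are comparable within a panel, not between genes.

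Elavl1, the broadly expressed member of its family, stood apart from the neuronal members in every comparison with neurons. Its log2 levels were 10.10, 10.14 and 10.04 in yNSCs, 10.72, 10.25 and 10.17 in NSCs and 7.85, 7.96 and 7.80 in neurons. All 6 arrays of stem cells thus lay above all 3 arrays of neurons. Elavl1 rose by 2.22 in yNSCs relative to neurons (SE 0.137, 4.67-fold, limma adjusted p = 2.71e-08) and by 2.51 in NSCs relative to neurons (SE 0.137, 5.7-fold, adjusted p = 8.45e-09). yNSCs lay below NSCs by a difference of -0.29 with a 95% interval of -0.59 to 0.01, which did not pass the test (adjusted p = 0.125) although the arrays did not overlap. The dividing-cell markers given above were also high in both stem cell groups, and their part in the difference was not tested.

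Elavl2 was graded over the 3 groups. It measured 5.86, 5.97 and 5.30 in yNSCs, 7.83, 7.74 and 7.74 in NSCs and 10.93, 10.87 and 10.85 in neurons, and no array of one group reached into another. It fell by 5.17 in yNSCs relative to neurons (SE 0.151, 36.1-fold lower, adjusted p = 4.26e-11), fell by 3.11 in NSCs relative to neurons (8.65-fold lower, adjusted p = 3.02e-09) and fell by 2.06 in yNSCs relative to NSCs (4.17-fold lower, adjusted p = 5.1e-07). Among the 10 genes, this was the difference of greatest size between yNSCs and neurons.

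Elavl3, by contrast, was low in both stem cell groups. Its levels were 5.76, 5.83 and 5.94 in yNSCs, 5.51, 5.83 and 5.79 in NSCs and 9.72, 9.60 and 9.91 in neurons. Both stem cell groups lay well below neurons and overlapped with each other. Elavl3 fell by 3.90 in yNSCs (SE 0.122, 14.9-fold lower, adjusted p = 7.52e-11) and fell by 4.03 in NSCs (SE 0.122, 16.4-fold lower, adjusted p = 5.41e-11), each relative to neurons. The difference between yNSCs and NSCs was 0.13 (95% interval -0.13 to 0.40, adjusted p = 0.435).

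Elavl4 separated yNSCs from native NSCs. Arrays read 4.99, 5.16 and 4.95 in yNSCs, 7.51, 8.14 and 7.87 in NSCs and 9.10, 8.74 and 8.64 in neurons. NSC arrays thus lay nearer to neurons than to yNSCs. Relative to neurons, Elavl4 fell by 3.79 in yNSCs (SE 0.165, 13.9-fold lower, adjusted p = 1.3e-09) and fell by 0.99 in NSCs (SE 0.165, 1.98-fold lower, adjusted p = 0.000193). In the direct comparison it fell by 2.81 in yNSCs relative to NSCs (SE 0.165, 7-fold lower, adjusted p = 7.86e-08). The 6 neuronal markers, each highest in neurons, did not all share this order. Map2 (9.76 in yNSCs and 11.52 in NSCs), Rbfox3 (4.58 in yNSCs and 6.50 in NSCs) and Syn1 (4.76 in yNSCs and 4.98 in NSCs) had lower means in yNSCs, whereas Tubb3 (5.71 in yNSCs and 4.42 in NSCs), Snap25 (6.42 in yNSCs and 4.29 in NSCs) and Stmn2 (6.25 in yNSCs and 4.32 in NSCs) had higher ones. The 4 oligodendrocyte precursor markers Pdgfra, Cspg4, Olig2 and Sox10 all had lower means in yNSCs than in NSCs. Their joint mean was 6.34 to 6.49 in yNSCs, 7.94 to 7.99 in NSCs and 7.79 to 7.91 in neurons. Pdgfra (4.04 in yNSCs, 7.15 in NSCs and 9.61 in neurons) had the order of Elavl4 over all groups. Sox10 had it by its means, but its yNSC and NSC arrays overlapped (4.80 to 5.19 and 5.16 to 5.26). Cspg4 (5.79 in yNSCs, 7.99 in NSCs and 6.42 in neurons) was highest in NSCs. So was Olig2 (10.78 in yNSCs, 11.51 in NSCs and 8.81 in neurons). The part of these markers in the Elavl4 values was not tested.

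Promoter sequence was at hand in RefSeq (GRCm38.p6) for 8 of the 10 genes, in 20 windows of 250 bases upstream of annotated starts. Of these, 4 are printed here, 5′ to 3′ on the strand of the gene: those of Elavl3 and Elavl4, which were lower in yNSCs than in neurons, and those of Elavl1 and Cpeb1, which were higher. Capitals mark exact matches on either strand to the E-boxes CAGCTG and CAGATG, to TATAAA, or to GGAATG, the motif bound by the TEAD partners of YAP; no match overlapped another in these windows. For Elavl4, which has 4 windows, 2 overlapping ones hold both E-boxes, and the one whose E-boxes lie nearer to its start is shown.
Elavl3, chr9:22052024-22052273, minus strand: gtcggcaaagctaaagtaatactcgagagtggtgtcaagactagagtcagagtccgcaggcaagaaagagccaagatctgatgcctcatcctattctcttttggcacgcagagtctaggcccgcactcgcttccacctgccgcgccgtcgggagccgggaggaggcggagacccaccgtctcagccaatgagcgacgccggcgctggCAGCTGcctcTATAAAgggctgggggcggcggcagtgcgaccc
Elavl4, chr4:110287528-110287777, minus strand: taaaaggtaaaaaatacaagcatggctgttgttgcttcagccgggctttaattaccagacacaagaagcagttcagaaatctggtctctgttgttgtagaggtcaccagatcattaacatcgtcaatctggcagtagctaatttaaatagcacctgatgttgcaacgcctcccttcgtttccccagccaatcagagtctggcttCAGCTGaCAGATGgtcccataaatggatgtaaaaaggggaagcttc
Elavl1, chr8:4325101-4325350, minus strand: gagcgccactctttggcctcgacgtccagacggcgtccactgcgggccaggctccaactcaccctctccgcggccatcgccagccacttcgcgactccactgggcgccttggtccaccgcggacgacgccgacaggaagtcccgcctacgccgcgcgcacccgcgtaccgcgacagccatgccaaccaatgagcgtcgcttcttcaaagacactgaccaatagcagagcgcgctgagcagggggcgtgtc
Cpeb1, chr7:81454759-81455008, minus strand: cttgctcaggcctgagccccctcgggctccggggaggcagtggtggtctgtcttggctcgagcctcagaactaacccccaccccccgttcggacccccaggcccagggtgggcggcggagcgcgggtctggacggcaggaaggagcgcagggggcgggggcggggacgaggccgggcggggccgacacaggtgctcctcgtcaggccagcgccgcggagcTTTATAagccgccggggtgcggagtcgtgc

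Counted from the first transcribed base, the Elavl3 window carries CAGCTG beginning at -43 and TATAAA beginning at -33. The Elavl4 window carries CAGCTG at -46 and CAGATG at -39, which lie at -62 and -55 from the start of the other window. The Cpeb1 window carries TATAAA on the opposite strand, beginning at -30, and the Elavl1 window holds none of the 4 motifs. None of the 6 windows of Elavl2, which also fell in yNSCs relative to neurons, holds any of them. The Elavl4 window at chr4:110351912-110352161 also holds none. GGAATG occurred in 0 of the 20 windows of these genes and in 12.6% of all 32851 RefSeq windows of this length. CAGCTG was in 4 of the 20 windows and 13.0% of all, CAGATG in 4 and 14.4%, and TATAAA in 2 and 12.4%. The windows of a gene can overlap, and a match is a description of letters, not of binding.

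Msi1, the marker of neural stem and progenitor cells, was graded in the opposite order to Elavl2. It read 7.50, 7.50 and 7.27 in yNSCs, 7.21, 6.63 and 6.59 in NSCs and 6.36, 5.65 and 6.10 in neurons. Every array of the stem cell groups was above every neuron array, and every yNSC array was above every NSC array, the closest pair being 7.27 and 7.21. Msi1 rose by 1.39 in yNSCs relative to neurons (SE 0.196, 2.61-fold, adjusted p = 4.97e-05) and by 0.77 in NSCs relative to neurons (SE 0.196, 1.71-fold, adjusted p = 0.00395). The rise of 0.61 in yNSCs relative to NSCs (1.53-fold, adjusted p = 0.0257) was lost without NSC B (0.52, adjusted p = 0.0978), NSC C (0.50, 0.0992), yNSC A (0.57, 0.0795) or yNSC B (0.57, 0.08).

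Msi2, the close relative of Msi1 that is also made in neural progenitors, was highest in yNSCs by the probe set that represents it. That probe set read 9.79, 9.74 and 9.46 in yNSCs, 8.72, 8.89 and 8.50 in NSCs and 8.83, 9.09 and 8.54 in neurons. yNSCs lay above both other groups, which overlapped. Msi2 rose by 0.84 in yNSCs relative to neurons (SE 0.156, 1.79-fold, adjusted p = 0.00045) and by 0.96 relative to NSCs (1.95-fold, adjusted p = 0.000362). NSCs and neurons differed by -0.12 (95% interval -0.46 to 0.22, adjusted p = 0.524).

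Cpeb1, the founding member of its family and the regulator of polyadenylation best known from oocytes, gave the sharpest contrast of the 10 genes between yNSCs and NSCs. Its single probe set read 7.72, 7.93 and 8.23 in yNSCs, 2.85, 2.82 and 3.02 in NSCs and 5.59, 4.74 and 5.44 in neurons. The 3 groups did not overlap, and NSCs were near background, so that the folds against NSCs and of NSCs against neurons are lower bounds. Cpeb1 rose by 2.70 in yNSCs relative to neurons (SE 0.2, 6.51-fold, adjusted p = 1.47e-07) but fell by 2.36 in NSCs relative to neurons (SE 0.2, at least 5.13-fold lower, adjusted p = 4.84e-07). yNSCs lay above NSCs by 5.06 (SE 0.2, at least 33.4-fold, adjusted p = 3.37e-09), which ranged over 4.93 to 5.18 when any single array was left out.

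The mean of 5 astrocyte markers (Gfap, Aqp4, Aldh1l1, Slc1a2 and Gja1) had the same order as Cpeb1, at 10.07 to 10.23 in yNSCs, 7.19 to 7.90 in NSCs and 9.66 to 9.89 in neurons, but not every marker did. Gfap (9.23 in yNSCs, 3.80 in NSCs and 7.62 in neurons) and Gja1 followed it, Aqp4 and Slc1a2 were highest in neurons, and Aldh1l1 was lowest in neurons. None of the 5 was near background in any group, and their part in the Cpeb1 values was not tested.

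Cpeb2, Cpeb3 and Cpeb4 form the second branch of the family, are abundant in brain and regulate mRNAs at synapses. All were lower in both stem cell groups than in neurons. Cpeb3 showed the widest gap, with levels of 5.07, 5.18 and 4.98 in yNSCs, 4.94, 5.40 and 5.19 in NSCs and 7.12, 7.03 and 6.98 in neurons. It fell by 1.97 in yNSCs (SE 0.124, 3.91-fold lower, adjusted p = 3.35e-08) and fell by 1.87 in NSCs (SE 0.124, 3.65-fold lower, adjusted p = 5.06e-08), each relative to neurons. Both stem cell groups overlapped, with a difference of -0.10 (95% interval -0.37 to 0.17, adjusted p = 0.578).

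Cpeb4 differed less. Its levels were 9.98, 10.04 and 9.78 in yNSCs, 9.59, 10.04 and 10.04 in NSCs and 10.86, 10.84 and 10.57 in neurons, so that neurons lay above 2 overlapping stem cell groups. It fell by 0.82 in yNSCs (SE 0.143, 1.77-fold lower, adjusted p = 0.000278) and fell by 0.87 in NSCs (SE 0.143, 1.82-fold lower, adjusted p = 0.000174), each relative to neurons. yNSCs and NSCs differed by 0.04 (95% interval -0.27 to 0.36, adjusted p = 0.846).

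Cpeb2 was ordered like Elavl2, over a much narrower range. It read 7.69, 7.78 and 7.39 in yNSCs, 7.94, 8.08 and 8.19 in NSCs and 8.59, 8.65 and 8.44 in neurons, without overlap between groups. It fell by 0.94 in yNSCs (SE 0.125, 1.92-fold lower, adjusted p = 2.86e-05) and fell by 0.49 in NSCs (1.4-fold lower, adjusted p = 0.00406), each relative to neurons. The further fall of 0.45 in yNSCs relative to NSCs (1.37-fold lower, adjusted p = 0.0123) was lost without NSC C (-0.39, adjusted p = 0.0512) or yNSC C (-0.34, adjusted p = 0.0596).

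**Figure D2:**
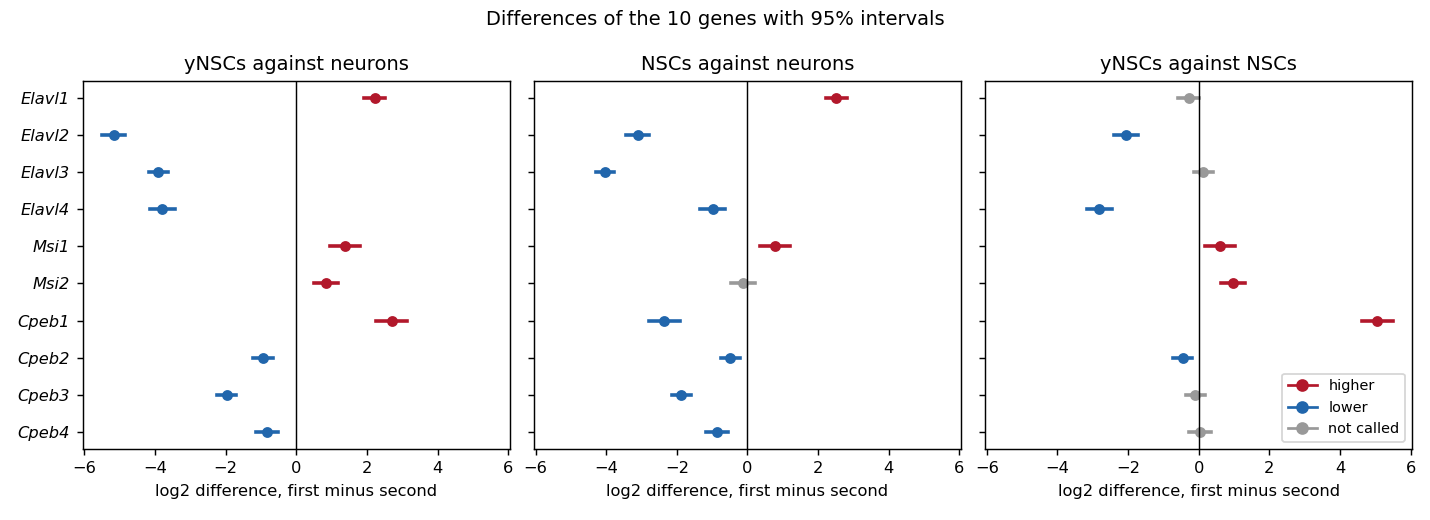
log2 differences of the 10 genes (rows) with 95% limma intervals (bars) for yNSCs against neurons, NSCs against neurons and yNSCs against NSCs; red points were called higher in the first-named group, blue points lower, and grey points did not pass. Cpeb1 lies at 2.70, -2.36 and 5.06 in the 3 panels, and Elavl4 at -3.79, -0.99 and -2.81.

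Whether the other probe sets of each gene told the same story was examined next, in a fit over 45037 probe sets. Of the 39 probe sets of these genes, 9 were higher and 22 lower in yNSCs against neurons, beside 28.1% of all probe sets higher and 28.1% lower. NSCs against neurons gave 11 higher and 24 lower, beside 30.5% and 32.8%. yNSCs against NSCs gave 8 higher and 13 lower, beside 18.1% and 18.9%.

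For the neuronal Elavl genes the probe sets largely shared a direction. All 3 probe sets of Elavl3 and all 3 of Elavl4 were lower in both stem cell groups than in neurons, and all 3 of Elavl4 were lower in yNSCs than in NSCs. For Elavl2, 4 of 5 were lower in each comparison with neurons and 1 did not pass. In yNSCs against NSCs, 3 of the 5 were lower and 2 did not pass, at 0.05 (1454454_at) and 0.03 (1433052_at). All 4 probe sets of Cpeb3 were lower in both stem cell groups than in neurons, while Cpeb1 had only 1 probe set and thus no second measurement.

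For Elavl1 and both Musashi genes the probe sets disagreed. A second Elavl1 probe set (1431037_a_at) gave 2.33 in yNSCs and 2.18 in NSCs relative to neurons, near the values above, whereas 1445521_at fell by 0.49 in yNSCs (adjusted p = 0.00892) and fell by 1.15 in NSCs (adjusted p = 1.5e-05). For Msi1, 1421409_at fell by 0.72 in yNSCs (adjusted p = 0.00381) and fell by 1.03 in NSCs (adjusted p = 0.000266) relative to neurons, against the rise of the brighter probe set. Only 1 of the 3 Msi1 probe sets was higher in yNSCs than in NSCs, and 2 did not pass. For Msi2, the probe set of second highest mean (1436818_a_at) rose by 1.46 in yNSCs (adjusted p = 5.2e-07) and by 1.86 in NSCs (adjusted p = 5.7e-08) relative to neurons, and fell by 0.40 in yNSCs relative to NSCs (adjusted p = 0.0168).

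The direction of Msi1 against neurons and that of Msi2 between yNSCs and NSCs therefore depended on the probe set, and for Msi2 in NSCs 4 of 8 probe sets were higher than in neurons although the one standing for the gene was not called. Cpeb2 also had a probe set, 1443017_at, that rose by 0.76 in NSCs relative to neurons (adjusted p = 0.00157) and fell by 1.41 in yNSCs relative to NSCs (adjusted p = 3.26e-05). Which transcript ends these probe sets read was not examined here.

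**Figure D3:**
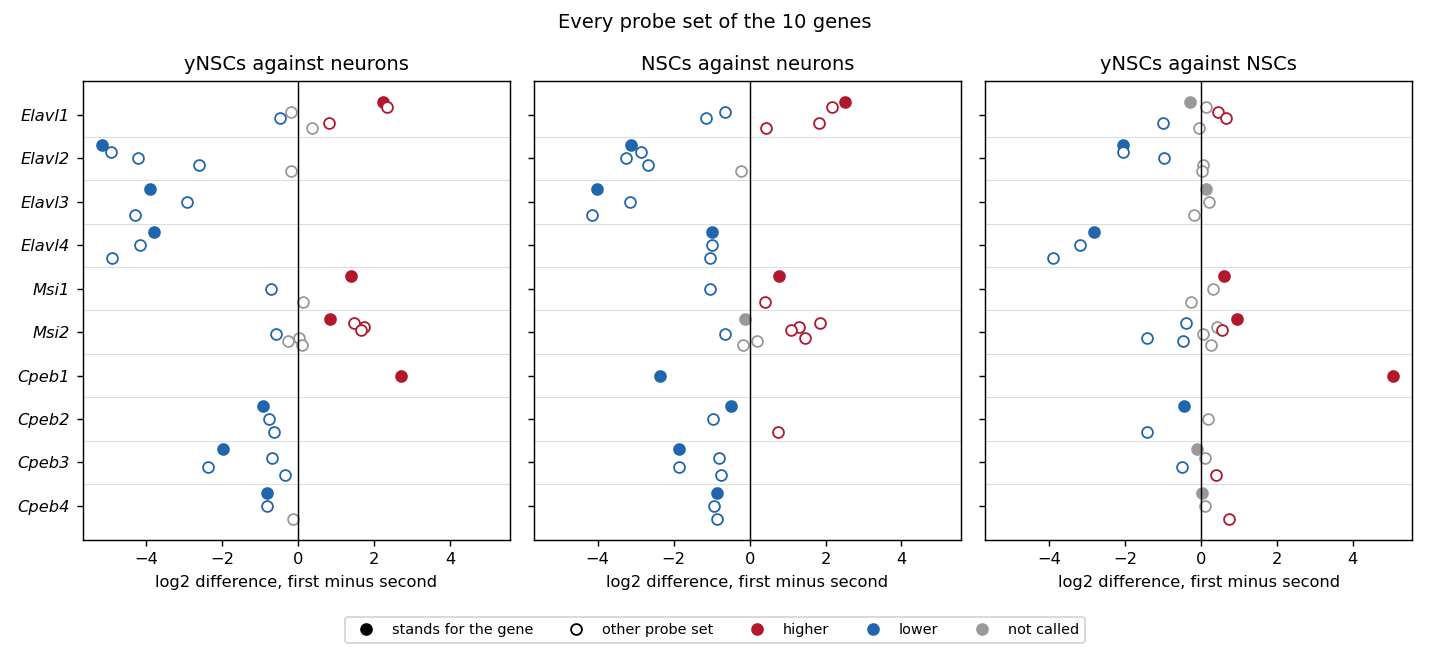
log2 differences (x axis) of all 39 probe sets by gene (rows) in the 3 comparisons; filled points stand for the gene, open points are its other probe sets, and colours give the calls. Elavl3, Elavl4 and Cpeb3 keep to the left of 0 in both comparisons with neurons, while Elavl1, Msi1 and Msi2 have points called on both sides in yNSCs against neurons.

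Proteins that work with these families were described next, each list beside the median of all genes, which was -0.01 in yNSCs against neurons, -0.07 in NSCs against neurons and 0.07 in yNSCs against NSCs. Counts in each list are to be read against the shares of all genes called higher and lower. These were 34.6% and 27.9% in yNSCs against neurons, 33.3% and 34.1% in NSCs against neurons, and 21.3% and 18.0% in yNSCs against NSCs. Of 7 ligands and shuttling factors of HuR, 5 were higher and 1 lower in yNSCs against neurons (median 0.62), with the same counts in NSCs (median 0.56). Tnpo1, a nuclear import receptor, measured 10.95 ± 0.14 in yNSCs, 10.98 ± 0.05 in NSCs and 8.96 ± 0.37 in neurons (SD, n = 3 each), and rose by 1.99 in yNSCs and 2.02 in NSCs relative to neurons. Anp32b, a nuclear phosphoprotein of the HuR ligand family, rose by 1.31 in yNSCs and 1.91 in NSCs, and fell by 0.59 in yNSCs relative to NSCs. Tnpo2, the import receptor closest to Tnpo1, fell by 0.64 in yNSCs relative to neurons. Between yNSCs and NSCs, 0 of the 7 were higher and 1 was lower.

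Other proteins that bind AU-rich elements, most of which speed decay where Elavl proteins slow it, were called in both directions. Of 8, 4 were higher and 2 lower in yNSCs against neurons (median 0.42), and 5 were higher and 1 lower in NSCs (median 0.94). Zfp36l2, a decay factor that recruits deadenylases, measured 10.40 ± 0.06 in yNSCs, 10.53 ± 0.08 in NSCs and 8.30 ± 0.11 in neurons (SD, n = 3 each). Zfp36l1, its paralogue, rose by 1.13 in yNSCs and 2.42 in NSCs relative to neurons and fell by 1.29 in yNSCs relative to NSCs. Zfp36 (tristetraprolin) rose by 2.01 in yNSCs relative to neurons and by 1.11 relative to NSCs. Between yNSCs and NSCs the list had 1 higher and 4 lower (median -0.29). The 2 lower calls in yNSCs fell to 1 when any single neuron or yNSC array, or NSC C, was left out.

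The machinery of cytoplasmic polyadenylation and the partners of CPEB were mostly higher in the stem cells. Of 15 genes, 12 were higher and 2 lower in yNSCs against neurons (median 0.71), and 13 were higher and 0 lower in NSCs (median 1.0). Tent2 (GLD-2), the cytoplasmic poly(A) polymerase that lengthens tails at CPEB, measured 9.10 ± 0.07 in yNSCs, 8.90 ± 0.06 in NSCs and 7.35 ± 0.10 in neurons (SD, n = 3 each). It rose by 1.75 in yNSCs and 1.55 in NSCs relative to neurons. Aurka, a mitotic kinase known from frog oocytes to phosphorylate CPEB, rose by 3.18 in yNSCs and 4.12 in NSCs, beside the dividing-cell markers given above. Tob1, an antiproliferative adaptor that brings deadenylases to CPEB, rose by 1.08 in yNSCs and 1.67 in NSCs.

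Relative to NSCs, yNSCs had 0 higher and 7 lower of these 15 (median -0.33), which became 4 lower without yNSC C. Ddx6, an RNA helicase of repressed messenger particles, fell by 0.83, and Aurka fell by 0.94. The 2 genes lower in yNSCs than in neurons (Eif4enif1 and Cnot7, named after their values were seen) became 1 or 0 without NSC B, NSC C or any single neuron or yNSC array.

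Other translational and RNA granule regulators, of which 16 of 17 were measured, split evenly in yNSCs, with 7 higher and 7 lower than in neurons (median -0.21). In NSCs 8 were higher and 4 lower (median 0.17), and between yNSCs and NSCs 1 was higher and 6 lower (median -0.17). Stau2, a neuronal factor of dendritic mRNA transport, measured 7.59 ± 0.02 in yNSCs, 7.92 ± 0.10 in NSCs and 9.46 ± 0.05 in neurons (SD, n = 3 each), and fell by 1.87 in yNSCs and fell by 1.53 in NSCs relative to neurons. Fxr1, a relative of the fragile X protein, rose by 1.67 in yNSCs relative to neurons. Nanos1, a partner of Pumilio in repression, fell by 1.71 in yNSCs relative to neurons and fell by 1.14 relative to NSCs. The 1 gene of this list higher in yNSCs than in NSCs (Fxr2, named after its values were seen) was not called without neuron C, NSC A, yNSC B or yNSC C.

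Other RNA-binding proteins of the nervous system were mostly lower in the stem cells. Of 16, 13 were lower and 2 higher in yNSCs against neurons (median -1.44), and 12 were lower and 4 higher in NSCs (median -1.01). Rbfox3, the splicing factor detected as NeuN, measured 4.58 ± 0.10 in yNSCs, 6.50 ± 0.15 in NSCs and 11.27 ± 0.13 in neurons (SD, n = 3 each). Rbfox1, another neuronal splicing factor, fell by 6.03 in yNSCs and fell by 6.55 in NSCs, where it was near background. Celf5 fell by 4.78 in yNSCs and fell by 5.0 in NSCs. The 2 higher in yNSCs were Ptbp1, a repressor of neuronal exons that rose by 2.96, and Qk, which rose by 0.34 (both named after their values were seen). The Qk call was lost with neuron C, yNSC A or yNSC B left out. Relative to NSCs, 5 of these genes were higher in yNSCs and 6 lower (median 0.14), with Celf4 up by 2.03 and Khdrbs3 down at -2.09.

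The mRNAs described as targets of these proteins did not move as blocks, and no value here measures binding, stability or translation. Of 13 described Elavl targets 11 were measured, and 6 were higher and 3 lower in yNSCs against neurons (median 1.61). In NSCs 6 were higher and 4 lower (median 1.88). Gap43, the growth cone protein stabilised by HuD, measured 7.64 ± 0.09 in yNSCs, 9.93 ± 0.16 in NSCs and 12.51 ± 0.04 in neurons (SD, n = 3 each). Elavl2, Elavl4 and Cpeb2 had the same order. Mapt, which encodes Tau, fell by 4.86 in yNSCs and fell by 4.95 in NSCs, and was not called between yNSCs and NSCs. Ptgs2, the inducible prostaglandin synthase and a described target of HuR, read 8.42, 8.68 and 8.80 in yNSCs and was near background in both NSCs and neurons, and rose by 5.54 relative to neurons and by 5.70 relative to NSCs. Between yNSCs and NSCs 3 of the list were higher and 5 lower (median -0.13).

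Of 4 described Musashi targets, 2 were higher and 1 lower in each comparison with neurons (medians 0.24 in yNSCs and 0.41 in NSCs). Numb itself measured 7.30 ± 0.17 in yNSCs, 7.84 ± 0.18 in NSCs and 7.16 ± 0.19 in neurons (SD, n = 3 each). Its difference from neurons was 0.14 in yNSCs (adjusted p = 0.384), and it rose by 0.68 in NSCs (adjusted p = 0.000815). Cdkn1a (p21), a cell cycle inhibitor, rose by 2.85 in yNSCs and 3.39 in NSCs, and Dcx, a microtubule protein of migrating neurons, fell by 7.02 in yNSCs, where it was near background, and fell by 6.74 in NSCs. The other higher call in yNSCs, Robo3 at 0.33, was lost without neuron A, neuron B, yNSC B or yNSC C. Relative to NSCs 0 were higher and 2 lower in yNSCs.

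Of 8 described Cpeb targets 7 were measured, and 5 were lower and 1 higher in both comparisons with neurons (medians -2.41 in yNSCs and -1.46 in NSCs). Gria2, a glutamate receptor subunit, measured 5.01 ± 0.21 in yNSCs, 9.08 ± 0.34 in NSCs and 11.33 ± 0.04 in neurons (SD, n = 3 each). Camk2a, a synaptic kinase whose mRNA is polyadenylated through CPEB, fell by 3.12 in yNSCs and fell by 3.20 in NSCs. Plat, tissue plasminogen activator, was the 1 higher gene, at 3.06 in yNSCs and 3.30 in NSCs. Mos, the oocyte target, was near background in all 3 groups. Relative to NSCs 1 was higher and 2 lower in yNSCs, with Gria1 up by 1.0 and Map2 down at -1.76.

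**Figure D4:**
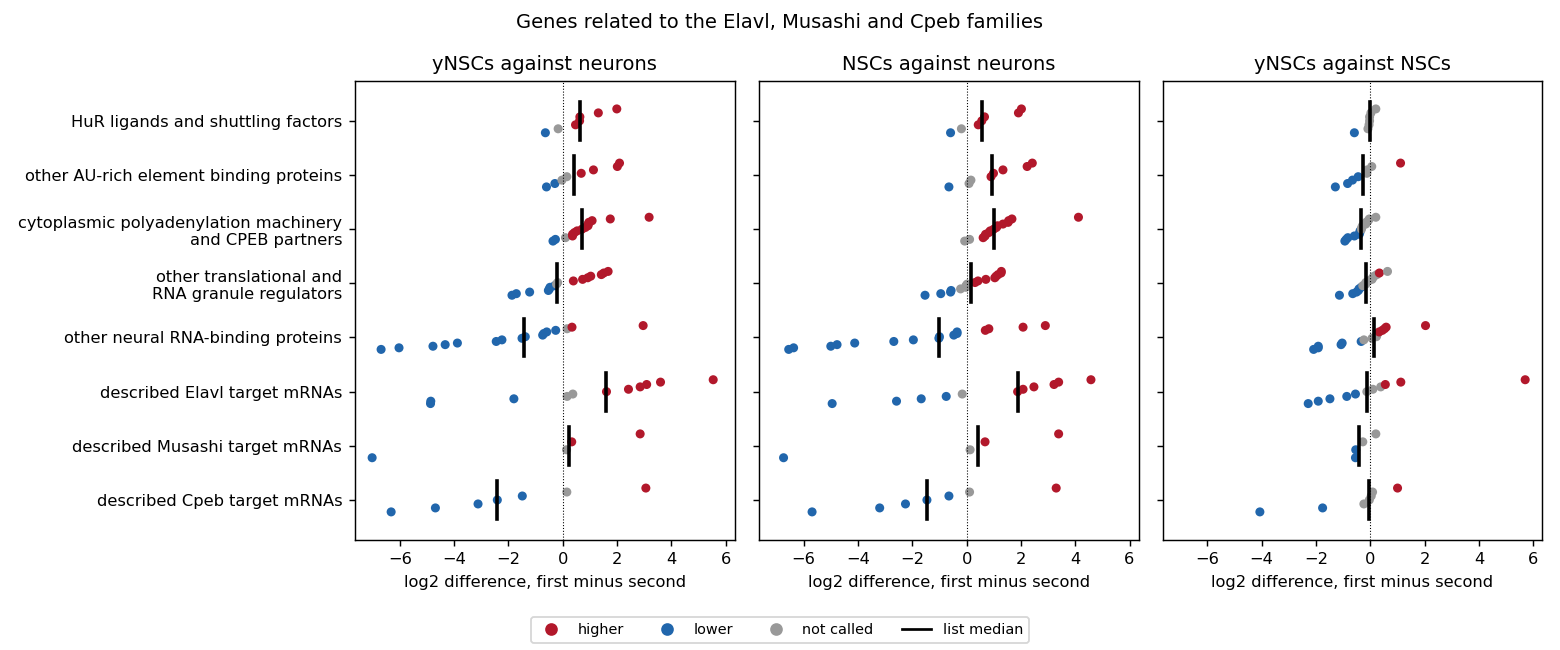
log2 differences (x axis) of each measured gene of the 8 related lists (rows) in the 3 comparisons; points are genes coloured by call and black bars are list medians. The polyadenylation list has its median at 0.71 in yNSCs and 1.0 in NSCs relative to neurons, and the neural RNA-binding list at -1.44 and -1.01.

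Finally, the genes whose pattern over the 9 arrays came closest to each member were found as those with the smallest root mean square difference after centring each gene on its mean. Elavl1 was followed most closely by Mcm6 (0.09) and Mcm7 (0.10), subunits of the replicative helicase, and by Stt3a (0.12). Elavl3 was followed by Jph3 (0.10), Unc80 (0.10) and Gabrb2 (0.13), which serve neuronal membranes and channels, and Elavl2 by Mef2c (0.25), AI504432 (0.27) and Crmp1 (0.28). Elavl4 had Bex2 (0.24), Peg3 (0.28) and Mpped2 (0.30) as its nearest.

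Cpeb1 was the least closely matched, by Osmr (0.37), the receptor of oncostatin M, Slc22a4 (0.45) and Rin1 (0.49). Cpeb2 lay near C2cd5 (0.08), Rap2a (0.09) and Ogt (0.10), Cpeb3 near Agtpbp1 (0.11) and Wdr13 (0.11), and Cpeb4 near Nucb2 (0.07) and Dzip1 (0.07). Msi1 lay near Ndufaf4, Eif2b3 and Gas2l1 (each 0.16), and Msi2 near Pmm2 (0.13). These distances follow from 3 group means and small spreads, and are descriptions without a test.

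**Figure D5:**
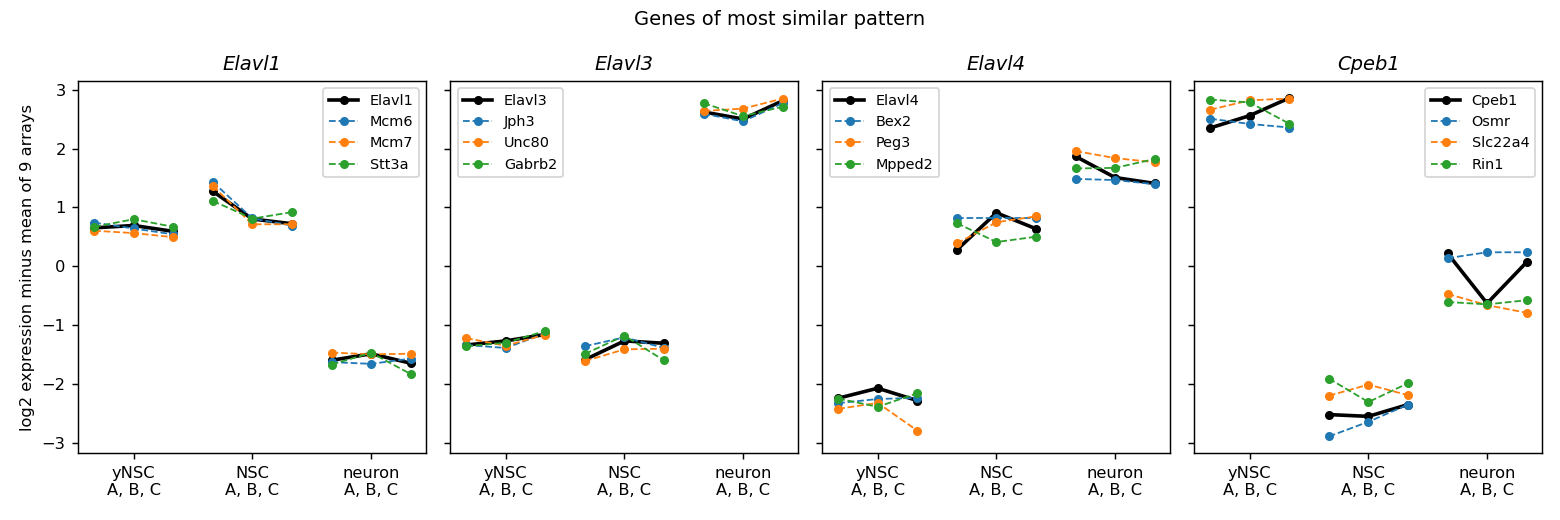
log2 expression minus the mean of the 9 arrays (y axis) for Elavl1, Elavl3, Elavl4 and Cpeb1 (black) and the 3 genes nearest to each (dashed), on arrays A, B and C of yNSCs, NSCs and neurons from left to right. The nearest genes lie 0.09 to 0.13 from Elavl1 and Elavl3 and 0.37 to 0.49 from Cpeb1, as root mean square differences.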

How the data were processed

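Total RNA of 3 yNSC, 3 NSC and 3 neuron samples was hybridised to Affymetrix arrays, and the authors deposited log2 values computed by RMA, as the submitters' processing notes name it. The version and settings of RMA, and whether all arrays were normalised together, are not given in the sources used here. Of 45101 probe sets, 64 controls were left out. GEO's platform annotation, with symbols updated through RefSeq gene IDs, gave 1 symbol to 34945 probe sets, several to 932 and none to 9160, and all 10 members matched a RefSeq ID. The probe set of highest mean stood for each of 18193 genes. Group means were fitted with limma 3.58.1 in R 4.3.3 over all 9 arrays, and p-values were Benjamini-Hochberg adjusted over all genes, or over 45037 probe sets where a probe set is named. Genes were called at 0.05 with no fold minimum.

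The deposited values carry no counts, so that depth does not apply. The samples are described as separate biological samples, the cultures or animals behind them are not given in the sources used here, and p-values measure the spread between these samples. An exact permutation of 3 arrays against 3 cannot pass the threshold, and no such test was used. The fit was tested on simulated data.

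Members and lists were chosen with earlier results of these data known. All members were named, and of each related list the text takes up to 3 called genes of largest difference and 1 not called per comparison, and the 3 nearest in pattern to each member. Alternatives were another probe set, the mean of probe sets, the replicate letter as a block, variance trend, renormalisation, a filter on low means, a 2-fold minimum and leaving out each array. Replicate letters did not pair the samples: the deviations of same-lettered arrays correlated at -0.11 to 0.10.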

Additional observations from a re-analysis of the deposited data

Results flagged for a closer look

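Cpeb1 was picked out because its difference from neurons had opposite directions in the 2 stem cell groups: it was higher in yNSCs by 2.70 and lower in NSCs, at -2.36. The gap between the 2, which is the difference of yNSCs from NSCs, was 5.06 (limma adjusted p = 3.37e-09), with 3 of 3 yNSC arrays above all NSC and neuron arrays. Cpeb1 was picked by this same value on the same 9 arrays, so that it is no independent support. It rests on 1 probe set, which was near background in NSCs, so that the gap is a lower bound.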

How the results depend on the processing

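Of 540 recomputed member differences, 511 stayed called in the same direction or stayed not called, 21 lost and 1 gained a call, and 7 turned round. Differences called in neither fit could still change sign among the 511. Cpeb4 in yNSCs relative to NSCs did so, at -0.11 to 0.12 with single arrays left out. The cause of these changes was not tested. With the probe set of second highest mean, Msi1 became -0.72 in yNSCs and -1.03 in NSCs relative to neurons, Msi2 became 1.86 in NSCs relative to neurons and -0.40 in yNSCs relative to NSCs, and Cpeb2 became 0.19 in yNSCs relative to NSCs. With the mean of all probe sets, Msi2 became 0.62 in NSCs relative to neurons and -0.01 in yNSCs relative to NSCs. Msi1 then lost its call in every comparison. It became 0.26 in yNSCs (limma adjusted p = 0.091) and 0.05 in NSCs (0.758) relative to neurons, and 0.22 in yNSCs relative to NSCs (0.205). Cpeb2 in NSCs relative to neurons also lost its call in this setting (-0.23, limma adjusted p = 0.138). Quantile normalisation again brought Msi2 in NSCs relative to neurons to -0.41 (limma adjusted p = 0.0351). Leaving out single arrays removed the call of 6 of 270 differences, all between yNSCs and NSCs, for Msi1 (0.50 to 0.81) and Cpeb2 (-0.53 to -0.34). Where the array left out belonged to the third group, the difference itself could not change, only its estimated spread. With the replicate block, 0 of the members changed their call, and in yNSCs against neurons the lower calls of the AU-rich and polyadenylation lists became 1 each and the higher calls of the Musashi targets became 1. With a 2-fold minimum, 1 member was higher and 4 lower in NSCs against neurons (2 and 7 without it), and 1 was higher in yNSCs against NSCs (3 without it), as also with the mean of all probe sets and with the probe set of second highest mean. Over all genes, that minimum left 3336 of 6294 higher and 1993 of 5081 lower in yNSCs against neurons, 3388 of 6051 and 2288 of 6206 in NSCs against neurons, and 1102 of 3876 and 1086 of 3277 in yNSCs against NSCs. Leaving out the 40% of genes of lowest mean, fewer genes tested, left 2901 lower in yNSCs and 3093 lower in NSCs, each against neurons. With the same minimum or with other probe sets, counts within the related lists moved by over 1.5 times in places, and the polyadenylation list kept 3 higher of 12 in yNSCs and 7 of 13 in NSCs at 2-fold. Signal near background limits Cpeb1 in NSCs.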
